A study of Rattus norvegicus with 60 samples.

Results

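The circadian clock genes of rat frontal cortex were described through 10 genes, Per1, Per2, Per3, Nr1d1, Nr1d2, Dbp, Tef, Cry1, Cry2 and Clock. The platform annotation gave one of these symbols alone to 20 probe sets, among 20826 probe sets that carried 1 symbol and stood for 14217 genes. The samples were frontal cerebral cortex of 60 male Long-Evans rats, 1 array per rat, aged 62 to 64 postnatal days by the labels. Each rat received a single oral gavage in corn oil and the tissue was taken 6 h later. Deltamethrin was given at 0.3, 1 and 3 mg/kg and permethrin at 1, 10 and 100 mg/kg (n = 8 rats at each dose), against corn oil alone as the vehicle (n = 12). Both compounds are pyrethroid insecticides that hold voltage-gated sodium channels open, and permethrin lacks the α-cyano group that deltamethrin carries. The labels give the hours of the light-dark cycle, and the study's methods give a narrow dosing window soon after lights on, counterbalanced over that window, with the last rat killed before lights off. All rats were therefore killed in the light phase, but the hour for each single rat is not given in the sources used here.

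The mammalian clock is a transcriptional feedback loop. CLOCK, or its relative NPAS2 in forebrain, pairs with BMAL1 and activates the Per and Cry genes through E-boxes, and PER and CRY proteins then repress that pair. A second loop runs through NR1D1 and NR1D2, known as REV-ERBα and REV-ERBβ, which are activated by the same pair and repress Bmal1 through the Rev-erb and ROR response element. DBP and TEF are activators of the PAR bZIP family that bind D-boxes and carry the rhythm to output genes, and Per1 also responds quickly to neuronal activity and to glucocorticoids. In rodents Dbp, Nr1d1, Nr1d2 and the Per genes are known to peak at other hours than Bmal1.

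RefSeq promoters (assembly GRCr8, 250 bases before to 50 after a gene's start) were read for 9 of the 10 genes, 11 promoters in all. Each window was searched on both strands for the E-box CACGTG, the D-box TTATGTAA or TTACGTAA, the cAMP response element TGACGTCA and, by its consensus, the Rev-erb and ROR response element. Among all 33469 promoters of that length 6.42% held the E-box, 1.01% the D-box, 1.83% the cAMP response element and 0.356% the Rev-erb and ROR response element. Of the 9 genes 2 had an E-box in the window (Nr1d1 and Tef), 1 had a D-box (Per2), and 0 had either of the other motifs. These windows and that of Bmal1, to which Dbp and Per1 are compared below, are shown because they hold a match, given in capitals, and a match is a description of letters only.
Per2, chr9:99496944-99497243, minus strand, D-box: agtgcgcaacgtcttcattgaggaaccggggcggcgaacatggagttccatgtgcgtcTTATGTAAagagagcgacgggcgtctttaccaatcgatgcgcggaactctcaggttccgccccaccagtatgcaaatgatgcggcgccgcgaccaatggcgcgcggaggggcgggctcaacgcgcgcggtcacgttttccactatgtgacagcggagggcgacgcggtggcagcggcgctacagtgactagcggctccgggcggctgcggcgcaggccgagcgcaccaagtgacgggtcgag
Nr1d1, chr10:84229405-84229704, minus strand, E-box at the inner of the gene's listed starts: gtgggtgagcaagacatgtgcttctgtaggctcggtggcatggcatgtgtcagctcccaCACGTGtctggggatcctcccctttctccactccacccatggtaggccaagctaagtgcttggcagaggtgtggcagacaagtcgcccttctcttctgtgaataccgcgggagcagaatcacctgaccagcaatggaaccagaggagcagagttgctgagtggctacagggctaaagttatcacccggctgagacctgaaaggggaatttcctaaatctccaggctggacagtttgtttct
Tef, chr7:115206577-115206876, plus strand, E-box: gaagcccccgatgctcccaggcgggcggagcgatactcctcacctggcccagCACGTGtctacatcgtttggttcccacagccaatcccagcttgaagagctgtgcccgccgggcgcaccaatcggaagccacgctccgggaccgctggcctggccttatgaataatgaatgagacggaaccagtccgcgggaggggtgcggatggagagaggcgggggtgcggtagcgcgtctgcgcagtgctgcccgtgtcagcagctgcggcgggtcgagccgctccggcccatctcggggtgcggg
Bmal1, chr1:176766078-176766377, plus strand, Rev-erb and ROR response element: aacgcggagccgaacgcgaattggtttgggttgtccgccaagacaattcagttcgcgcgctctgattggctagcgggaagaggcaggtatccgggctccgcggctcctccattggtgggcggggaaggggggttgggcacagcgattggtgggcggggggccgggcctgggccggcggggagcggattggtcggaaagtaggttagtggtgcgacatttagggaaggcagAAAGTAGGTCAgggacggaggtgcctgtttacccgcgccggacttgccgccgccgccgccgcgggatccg
Counted with the start base as 0, the Per2 D-box ran over bases -192 to -185, the Nr1d1 E-box over -191 to -186, the Tef E-box over -198 to -193 and the Bmal1 element over -20 to -10. The windows of Per1, Dbp, Nr1d2, Cry2, Per3 and Clock held none of these letters, which says nothing of sites elsewhere in those genes. The Per1 window (chr10:54304126-54304425) lay inside its gene, which begins at base 54299002. The Tef window also lay inside its gene, which begins at base 115197180. Promoters at those outer starts were not among the windows read.

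All values were log2 RMA values. The 60 arrays had medians of 7.07 to 7.2 and 0 pairs were identical. The first principal component over all 31042 probe sets carried 58.0% of the variance and set 15 arrays above its largest gap, 14 of them with low replicate numbers. Low replicate numbers were 1 to 3 at each dose and 1 to 6 in vehicle (24 rats), and high ones 4 to 8 and 7 to 12 (36 rats). A straight line in the plane of the first components (58.0% and 10.8% of the variance) put all 60 arrays on their own set's side. The labels name no cohort or batch. In every dose group the set sizes equal those of the study's first and second microarray cohorts, which its methods say were exposed on separate days, but no label ties a rat to a cohort. Exposure day and anything else that differed between these rats cannot be told apart. Markers of the labelled tissue were bright (Slc17a7 12.47, of excitatory neurons, and Gad1 11.98, of inhibitory neurons), and so was the striatal marker Ppp1r1b (11.35). Each was the brightest of its list. The other measured markers ran from 8.83 to 9.13 (excitatory), 8.89 to 11.07 (inhibitory) and 8.58 to 9.27 (striatal).

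The mean of the brightest probe set of each gene over 60 rats was 10.58 for Tef, 10.38 for Cry2, 10.0 for Dbp, 9.52 for Nr1d2, 9.07 for Per1, 8.94 for Per2, 8.77 for Nr1d1, 8.45 for Clock, 7.8 for Cry1 and 7.56 for Per3. These levels belong to different probes and are not an order of transcript abundance. The spread between rats differed by gene. The SD over 60 rats was 0.63 and 0.52 for the brighter Nr1d2 probe sets, 0.46 for the brightest Clock probe set and 0.37 for Nr1d1, against 0.16 for Tef and a median of 0.18 over all probe sets. Per2 had 0.15 in its brightest probe set and 0.37 in 1368303_at, which was nearly as bright (8.94 and 8.91). Much of the Nr1d2 and Clock spread followed the first component: within dose and replicate set, r with the component was -0.94 for Nr1d2 and -0.96 for Clock, 0.25 for Nr1d1 and 0.38 for Dbp (60 rats, a description over arrays that share it). With the component removed the SD within dose and set was 0.18 for Nr1d2 and 0.11 for Clock, and it stayed 0.19 for Nr1d1 and 0.23 for Dbp.

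The first question was whether either compound moved the clock genes at 6 h. None of the 20 probe sets passed an adjusted p of 0.05 at any dose in limma's test, and 0% of all 31042 probe sets did. At an unadjusted p of 0.05, 0 of 20 passed at 0.3 mg/kg deltamethrin (0.751% of all probe sets), 0 at 1 mg/kg (2.24%) and 1 at 3 mg/kg (1.36%). For permethrin the counts were 0 at 1 mg/kg (1.18%), 1 at 10 mg/kg (3.48%) and 1 at 100 mg/kg (1.24%). The genes concerned were Cry1, a repressor of CLOCK and BMAL1, at the top dose of deltamethrin and the middle dose of permethrin, and Per2, its partner in repression, at 100 mg/kg permethrin.

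Cry1 (1392640_at) ran from 7.48 through a median of 7.99 to 8.42 in the 8 rats at 3 mg/kg deltamethrin, against 7.17, 7.65 and 8.26 in the 12 vehicle rats. Its means over rising deltamethrin doses were 7.69 ± 0.31, 7.88 ± 0.24 and 7.94 ± 0.28, and over rising permethrin doses 7.76 ± 0.28, 7.91 ± 0.25 and 7.85 ± 0.29 (SD, n = 8), against 7.66 ± 0.30 in vehicle (SD, n = 12). The vehicle mean was the lowest of the 7, and every dose group overlapped vehicle. The difference was 0.28 (SE 0.13, limma unadjusted p = 0.029, adjusted p = 1) at 3 mg/kg deltamethrin and 0.25 (unadjusted p = 0.0492, adjusted p = 0.961) at 10 mg/kg permethrin. Over deltamethrin dose the slope was 0.0948 per mg/kg (SE 0.0396, unadjusted p = 0.0218, adjusted p = 1), where 1 of 20 clock probe sets and 1.36% of all passed unadjusted. The difference at 3 mg/kg was 0.312 within high and 0.224 within low replicate numbers, each against vehicle rats of the same set. At 10 mg/kg permethrin it was 0.093 within high and 0.511 within low replicate numbers, so the low set carried most of it. Cry1 went with the first component (r = 0.69 within dose and set). At 10 mg/kg permethrin the 3 arrays of the low set all stood above the gap in that component, against 2 of the 12 vehicle arrays.

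Per2 had 2 probe sets that did not move alike, with r = -0.28 between them over 60 rats. Probe set 1368303_at ran from 8.71 through 9.17 to 9.98 at 100 mg/kg permethrin, against 8.47, 8.73 and 9.35 in vehicle. The means were 8.74 ± 0.45, 8.88 ± 0.19 and 9.20 ± 0.44 at 1, 10 and 100 mg/kg permethrin (SD, n = 8), against 8.86 ± 0.32 in vehicle (SD, n = 12), and the ranges overlapped. At 100 mg/kg permethrin it was 0.34 above vehicle (SE 0.16, limma unadjusted p = 0.04, adjusted p = 1). Its slope over permethrin dose was 0.0038 per mg/kg (unadjusted p = 0.0101, adjusted p = 1), the 1 of 20 that passed unadjusted there, against 0.696% of all probe sets. The brighter Per2 probe set, 1378560_at, differed from vehicle by 0.02 (SE 0.07) at that dose, with means of 8.96 ± 0.16 (SD, n = 8) against 8.94 ± 0.13 (SD, n = 12).

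The other clock genes did not pass unadjusted at any dose, although single rats fell outside the range of vehicle. Dbp at 10 mg/kg permethrin averaged 10.21 ± 0.26 (SD, n = 8), with rats at 10.39, 10.42 and 10.68 above the vehicle maximum of 10.36. Those were the 3 rats with low replicate numbers at that dose, whose arrays stood above the gap in the first component. The 5 with high numbers ran from 9.96 to 10.12. The lowest rat of Nr1d2 (1370541_at) at 1 mg/kg permethrin, also one with a low replicate number, had 8.07, below the vehicle minimum of 8.58. At the top doses Nr1d1 averaged 8.72 ± 0.44 (deltamethrin) and 8.66 ± 0.45 (permethrin) (SD, n = 8), against 8.85 ± 0.34 in vehicle (SD, n = 12), so that the differences of -0.13 and -0.20 had 95% intervals of -0.473 to 0.204 and -0.534 to 0.143. Dbp averaged 9.97 ± 0.23 and 9.98 ± 0.41 at those doses (SD, n = 8), against 9.98 ± 0.26 in vehicle (SD, n = 12), with intervals of -0.267 to 0.235 and -0.255 to 0.247. For Per1 the intervals were -0.393 to 0.084 and -0.232 to 0.246. These intervals hold the differences that remain compatible with the data in groups of this size. Over the 7 groups the means of a probe set spanned 0.06 to 0.46. For 16 of 20 probe sets that span was below the SD within dose groups. For all 20 the widest gap between neighbouring means, at most 0.25, was below it. That SD is the spread of single rats, so these counts are a description and no test of a dose effect.

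**Figure D1:**
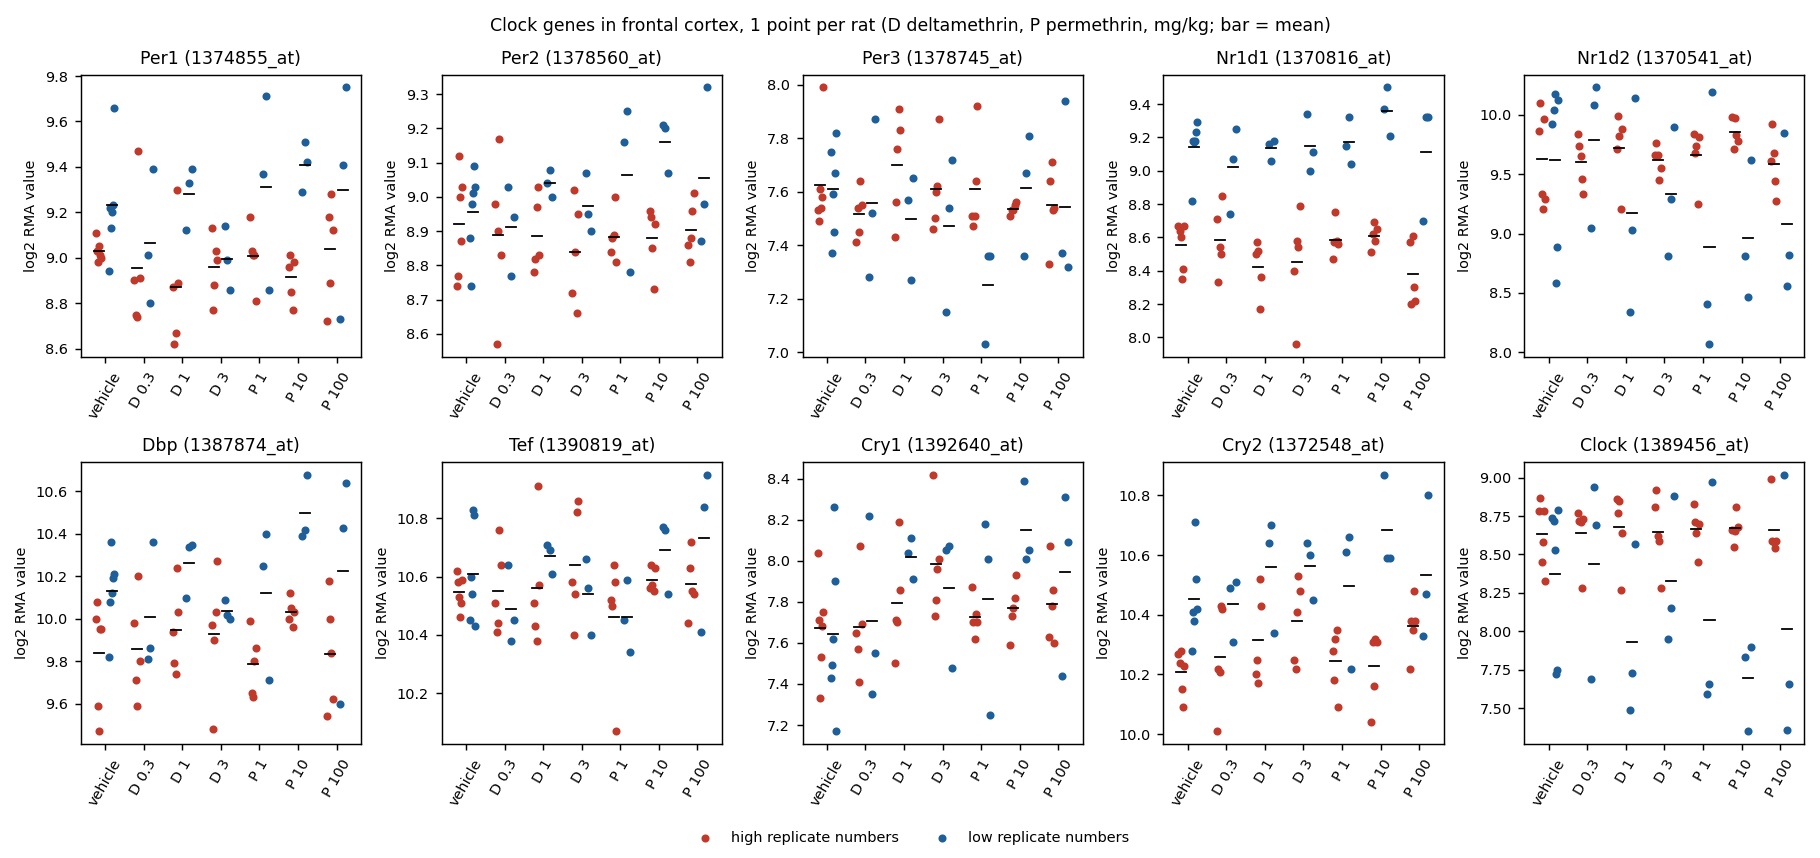
The log2 RMA value of the brightest probe set of each of the 10 genes (y axis) by dose group (x axis, mg/kg; D deltamethrin, P permethrin), with 1 point per rat, red for high and blue for low replicate numbers and a bar at each mean. Dose groups overlap vehicle throughout, and in Nr1d1 the red points lie below the blue ones in every group except 0.3 mg/kg deltamethrin, where the ranges overlap.

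**Figure D2:**
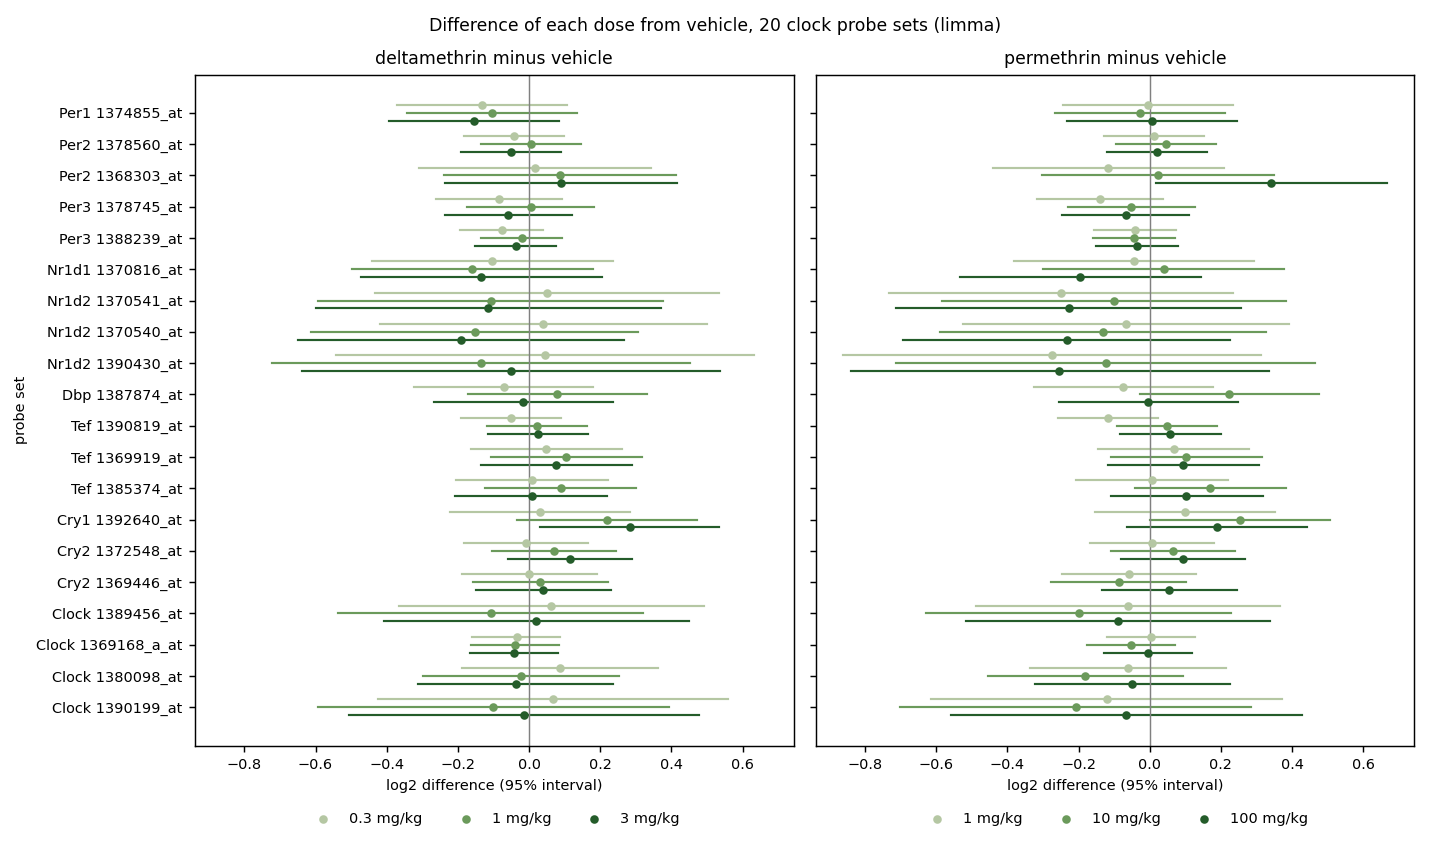
Difference of each dose from vehicle on the log2 scale (x axis) for all 20 clock probe sets (y axis), as limma's estimate (point) with its 95% interval (line), shaded from low to high dose. Only Cry1 (3 mg/kg deltamethrin, 10 mg/kg permethrin) and Per2 1368303_at (100 mg/kg permethrin) have intervals that exclude 0, and none passed the adjusted threshold.

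The compounds were set against each other next. At 1 mg/kg of both, a match in mg/kg only, 0 of 20 clock probe sets passed adjusted or unadjusted, against 0% and 2.73% of all probe sets. By behavioural potency the study instead pairs 0.3 mg/kg deltamethrin with 1 mg/kg permethrin, and 1 with 10 mg/kg. It places 100 mg/kg permethrin at a higher effect level than 3 mg/kg deltamethrin. Deltamethrin minus permethrin at 1 mg/kg was 0.15 for Dbp (95% interval -0.122 to 0.429), -0.12 for Nr1d1 (-0.486 to 0.256), -0.10 for Per1 (-0.362 to 0.162) and 0.14 for Tef (-0.014 to 0.294). Intervals of this width do not show that the compounds act alike. At doses unequal in mg/kg the counts were also 0 of 20, both ways: at 3 mg/kg deltamethrin beside 100 mg/kg permethrin (0% and 0.802% of all), at 1 beside 10 mg/kg (0% and 1.02%) and at 0.3 beside 1 mg/kg (0% and 2.41%).

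Further clock genes were read as well. Of 22 listed genes 18 had a probe set, and 0 of the 18 passed an adjusted p at any dose, in either trend or between compounds. In each of those comparisons 0% of all 31042 probe sets passed, so this count was fixed by the background. Bmal1 (1370510_a_at, the annotation's symbol for Arntl) differed from vehicle by -0.03 (SE 0.09) at the top deltamethrin dose and by -0.003 (SE 0.09) at the top permethrin dose, and Npas2 by 0.04 and 0.08 (SE 0.07 each). The median over the 18 genes was 0.04 and 0.02, beside -0.00536 and 0.00545 over all probe sets. Of 7 listed glucocorticoid-induced genes 6 were measured and of 7 activity-induced genes 7, and 0 passed at any dose. Fos was read through a different probe set from the c-fos one that the study lists as dose-responsive for permethrin. The values of the study's c-fos probe set are not given here, so the Fos results do not speak for it. Fkbp5, a glucocorticoid-induced co-chaperone, just missed the threshold at 3 mg/kg deltamethrin (0.49, SE 0.09, limma unadjusted p = 1.65e-06, adjusted p = 0.0512). At that dose 2 of the 6 genes of its list passed unadjusted, both higher, beside 1.36% of all probe sets. Of the activity-induced genes Fosb (0.446) passed unadjusted there as higher, and Nr4a1 (-0.455) and Arc (-0.542) as lower. At 100 mg/kg permethrin Fosb (0.52) and Egr2 (0.534) passed unadjusted, both higher, beside 1.24% of all. The median of that list was 0.10 (top deltamethrin dose) and 0.06 (top permethrin dose), and that of the activity-induced genes -0.24 and 0.09.

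The clock genes did differ between high and low replicate numbers, with dose in the model. In limma 14 of 20 probe sets (70%) passed an adjusted p of 0.05, 7 higher and 7 lower, against 59.4% of all 31042 probe sets (28.2% higher and 31.2% lower). The share among clock genes therefore lay close to the background, and the account rests on single genes. The difference was largest in Nr1d2 1390430_at (0.70) and next in Nr1d1 (-0.64), the repressor of Bmal1. Nr1d1 was the 1 probe set of the 20 that also passed in vehicle rats alone.

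Nr1d1 (1370816_at, gene on chromosome 10 of GRCr8) ran from 7.96 through a median of 8.56 to 8.85 in the 36 rats with high replicate numbers, against 8.7, 9.18 and 9.5 in the 24 rats with low ones. Of the 36, 32 lay below every rat with a low number and 0 lay above the mean of the low set. The difference was -0.64 (SE 0.05, limma adjusted p = 1.42e-16), a ratio of 0.64 between geometric means. In vehicle rats alone Nr1d1 ran from 8.35 through 8.62 to 8.67 in high replicate numbers, against 8.82, 9.18 and 9.29 in low ones, with no overlap, and the difference was -0.59 (SE 0.11, adjusted p = 0.000121). That 1 clock probe set of 20 compares with 9.21% of all probe sets that passed there.

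The same order held at each dose. At 3 mg/kg deltamethrin the 5 rats with high numbers had 8.4, 7.96, 8.58, 8.54 and 8.79, against 9.34, 9.0 and 9.11 in the 3 with low numbers. At 100 mg/kg permethrin those with high numbers had 8.57, 8.2, 8.61, 8.3 and 8.22, against 8.7, 9.32 and 9.32 in those with low numbers. Over the 6 dose groups the difference in Nr1d1 lay between -0.43 at 0.3 mg/kg deltamethrin and -0.75 at 10 mg/kg permethrin, and the sets overlapped at 0.3 mg/kg deltamethrin only. With the first component as a covariate it was -0.55 (limma adjusted p = 1.74e-11), and without the 15 arrays above the gap it was -0.55 (adjusted p = 2.28e-09).

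Dbp, Per1 and Cry2 were also lower in high replicate numbers. Dbp ran from 9.47 through 9.95 to 10.27 in the high set, against 9.6, 10.2 and 10.68 in the low set (difference -0.30, SE 0.06, limma adjusted p = 4.79e-05). Per1 ran from 8.62 through 8.99 to 9.47 in the high set, against 8.73, 9.22 and 9.75 in the low set (-0.25, SE 0.06, adjusted p = 0.000298). Both pairs of ranges overlapped widely, and in Dbp and Per1 3 of 36 rats with high numbers lay above the mean of the low set. Cry2 (1372548_at) ran from 10.01 through 10.28 to 10.53 in the high set, against 10.22, 10.51 and 10.87 in the low set (-0.25, SE 0.04, adjusted p = 2.07e-07), and its other probe set had -0.21 (SE 0.05, adjusted p = 0.000207). With the first component as a covariate Dbp and Per1 no longer passed, at -0.15 and -0.06. Without the 15 arrays apart neither they nor Cry2 (1372548_at) passed, at -0.17, -0.10 and -0.10. In vehicle rats alone the differences were -0.29, -0.20 and -0.24 (limma adjusted p = 0.201, 0.423 and 0.0583).

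Clock and Nr1d2 were higher in high replicate numbers, and this depended on the arrays that stood apart. Clock (1389456_at) ran from 8.27 through 8.67 to 8.99 in the high set, against 7.35, 7.92 and 9.02 in the low set (0.51, SE 0.10, limma adjusted p = 3.03e-05). Nr1d2 ran from 9.21 through 9.71 to 10.1 in the high set (1370541_at), against 8.07, 9.17 and 10.23 in the low set (0.37, SE 0.13, adjusted p = 0.0127), and 0.70 (SE 0.14, adjusted p = 3.18e-05) separated the sets in 1390430_at. The low set was the wider one in both genes, with an SD for Clock of 0.18 in the high set and 0.58 in the low set, and for Nr1d2 of 0.25 in the high set and 0.73 in the low set. Without the 15 arrays apart the Clock difference was -0.14 (adjusted p = 0.0784) and the Nr1d2 difference -0.42 (adjusted p = 2.78e-05), so that both had changed sign. The Per2 probe sets parted here too, at -0.13 (SE 0.04, adjusted p = 0.00207) for 1378560_at and 0.35 (SE 0.08, adjusted p = 0.000229) for 1368303_at. The value of 1378560_at was 0.012 with the first component as a covariate and 0.002 without the 15 arrays apart, and passed in neither. The brightest probe sets of Cry1, Tef and Per3 did not pass (-0.10, SE 0.07; -0.04, SE 0.04; 0.08, SE 0.05).

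**Figure D3:**
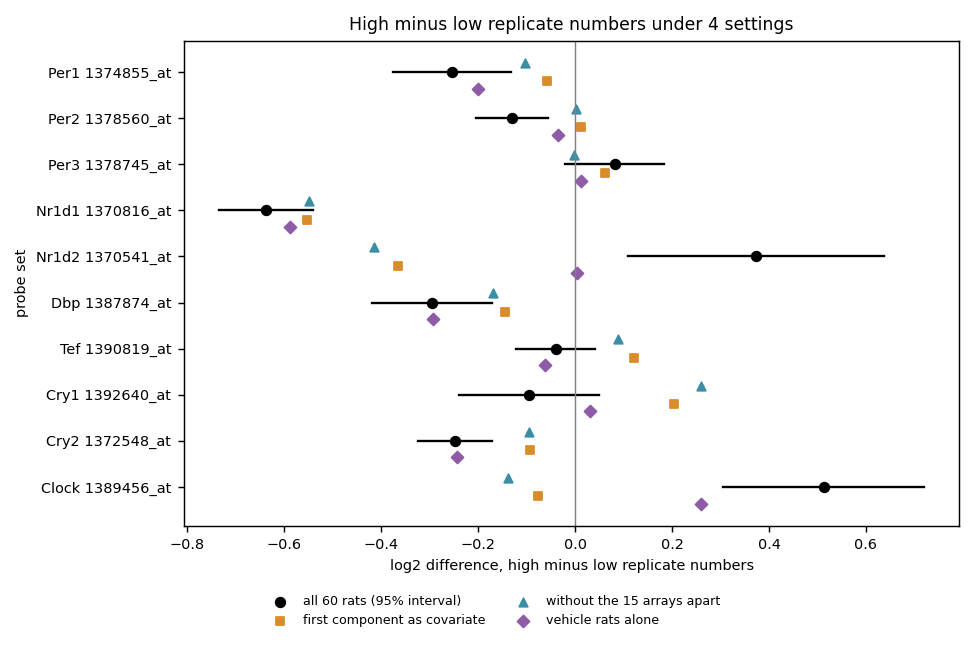
Log2 difference of high minus low replicate numbers (x axis) for the brightest probe set of each clock gene (y axis). The black point with its 95% interval uses all 60 rats, orange squares add the first component as covariate, blue triangles leave out the 15 arrays apart and purple diamonds use vehicle rats. Nr1d1 lies between -0.64 and -0.55 in all 4, while Nr1d2 and Clock lie on the other side of 0 with the component or without those arrays.

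Other genes moved with the replicate numbers as well, as did 59.4% of all probe sets (28.2% higher and 31.2% lower), and the counts that follow are to be read against those shares. Of 7 activity-induced genes 5 were lower in high replicate numbers and 0 higher, namely Arc (-0.43), Egr1 (-0.35), Nr4a1 (-0.29), Junb (-0.24) and Fos (-0.18), with a list median of -0.27. Markers of most cell types shifted too: all 3 of endothelial cells were lower (median -0.34), 2 of 4 of microglia and 2 of 4 of oligodendrocytes were lower, 2 of 4 of astrocytes were higher and 2 lower, and of 4 striatal markers 1 was higher and 2 lower. Of 5 inhibitory neuron markers Gad2 (0.60) and Gad1 (0.35) were higher and Pvalb (-0.53) and Sst (-0.33) lower, and of 3 excitatory neuron markers Neurod6 (0.23) was higher and Slc17a7 (-0.45) lower. Of 6 glucocorticoid-induced genes Fkbp5, Klf9 and Tsc22d3 were higher and Nfkbia lower (-0.57). Their part in the clock gene differences was not tested. Among the 18 further clock genes 8 were higher and 6 lower. Bmal1 was lower (-0.20, SE 0.05, adjusted p = 0.000473), at 8.01, 8.54 and 8.83 (lowest, median and highest) in high replicate numbers against 8.37, 8.66 and 9.11 in low ones, and Npas2 was higher (0.14, SE 0.04, adjusted p = 0.00163). The 8 of lowest p were Rorb (1.13, SE 0.10, adjusted p = 1.74e-14), an activator at the element that NR1D1 also binds, Usp2 (-0.45), a deubiquitinase of clock proteins, Timeless (-0.42), Btrc (-0.28), part of a ubiquitin ligase, the kinases Csnk1e (0.21), Csnk2a1 (0.36) and Csnk1d (-0.22), and Nfil3 (-0.36), a repressor at D-boxes. In vehicle rats alone 6 of the 18 passed, against 9.21% of all probe sets, Rorb (1.0), Csnk1e (0.25) and Tipin (0.23) higher and Usp2 (-0.34), Timeless (-0.35) and Btrc (-0.25) lower.

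Whether a dose acted differently in the sets was tested for the top doses. At 3 mg/kg deltamethrin 0 of 20 clock probe sets passed adjusted and 1 unadjusted (0% and 0.606% of all), and at 100 mg/kg permethrin 0 and 1 (0% and 2.1%). These were Cry2 1369446_at (high minus low -0.35, limma unadjusted p = 0.0411, adjusted p = 1) and the dim Tef 1385374_at (-0.53, unadjusted p = 0.0117, adjusted p = 0.975).

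Pairs of clock genes were then compared across rats. Correlations were computed for 12 genes, the 10 with Bmal1 and Npas2, within each replicate set and after removing dose means. Two-sided permutation tests within dose groups (100000 resamples) were adjusted over all 132 correlations. In the high set 21 of 66 pairs passed an adjusted p of 0.05 and in the low set 23, of which 9 and 10 were positive and 12 and 13 negative. The share among other gene pairs was not computed, and over all probe sets the median size of r with the first component was 0.56. Of the pairs that passed, 11 pairs passed in both sets, all 11 with the same sign. With the first component removed 13 and 4 pairs passed, 3 of them in both sets, and 2 passed in both sets with and without it: Per1 with Dbp, and Per1 with Bmal1.

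Per1 and Dbp rose and fell together from rat to rat. In the 36 rats of the high set r was 0.60 (rho 0.54, permutation p = 0.0005 and 0.002, adjusted p = 0.0037 and 0.011), and in the 24 rats of the low set it was 0.86 (rho 0.80, permutation p = 0.00061 and 0.0011, adjusted p = 0.004 and 0.0074). With the first component removed r was 0.59 and 0.81 (permutation adjusted p = 0.017 and 0.0066). Leaving out the 2 rats farthest from the median of Per1 gave 0.47 and 0.78, and the high set then had a permutation adjusted p of 0.071. The low set holds arrays on both sides of the gap in the first component, and r was 0.84 in its 14 rats above and 0.80 in its 10 rats below. Dose means were left in within these smaller groups, so these values are not the same measure as the others.

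Bmal1 ran opposite to both. Its r with Per1 was -0.64 in the high set (rho -0.49, permutation p = 0.0018 and 0.0092, adjusted p = 0.0088 and 0.031) and -0.78 in the low set (rho -0.75, permutation p = 0.0021 and 0.0016, adjusted p = 0.0092 and 0.0095). Without the 2 rats farthest from the median r was -0.40 and -0.66, with permutation adjusted p = 0.2 and 0.062, so in both sets the call rested on those rats. Its r with Dbp was -0.51 in the high set (rho -0.47, permutation p = 0.0066 and 0.012, adjusted p = 0.022 and 0.038) and -0.82 in the low set (rho -0.77, permutation p = 0.00097 and 0.0027, adjusted p = 0.0057 and 0.013). Without the 2 rats farthest from the median it was -0.55 and -0.67, with permutation adjusted p = 0.034 and 0.052. Once the first component was removed it was -0.48 and -0.82, with permutation adjusted p = 0.07 and 0.013, so the high set no longer passed. In the low set, with dose means left in, r of Bmal1 was -0.82 with Per1 and -0.74 with Dbp above the gap, and -0.76 and -0.83 below it.

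Nr1d2 and Dbp were related only once the first component was taken out. As deposited, r was 0.15 in the high set (rho 0.19, permutation p = 0.43 and 0.32, adjusted p = 0.54 and 0.48) and -0.26 in the low set (rho -0.08, permutation p = 0.34 and 0.77, adjusted p = 0.46 and 0.83). With the component removed it was 0.62 (rho 0.61, permutation p = 0.00099 and 0.00099, adjusted p = 0.016 and 0.014) and 0.85 (rho 0.81, permutation p = 0.00042 and 0.001, adjusted p = 0.011 and 0.014). Within the low set, with dose means and the component left in, r was 0.05 in the 14 rats above the gap and 0.61 in the 10 below. Neither passed the adjusted threshold.

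**Figure D4:**
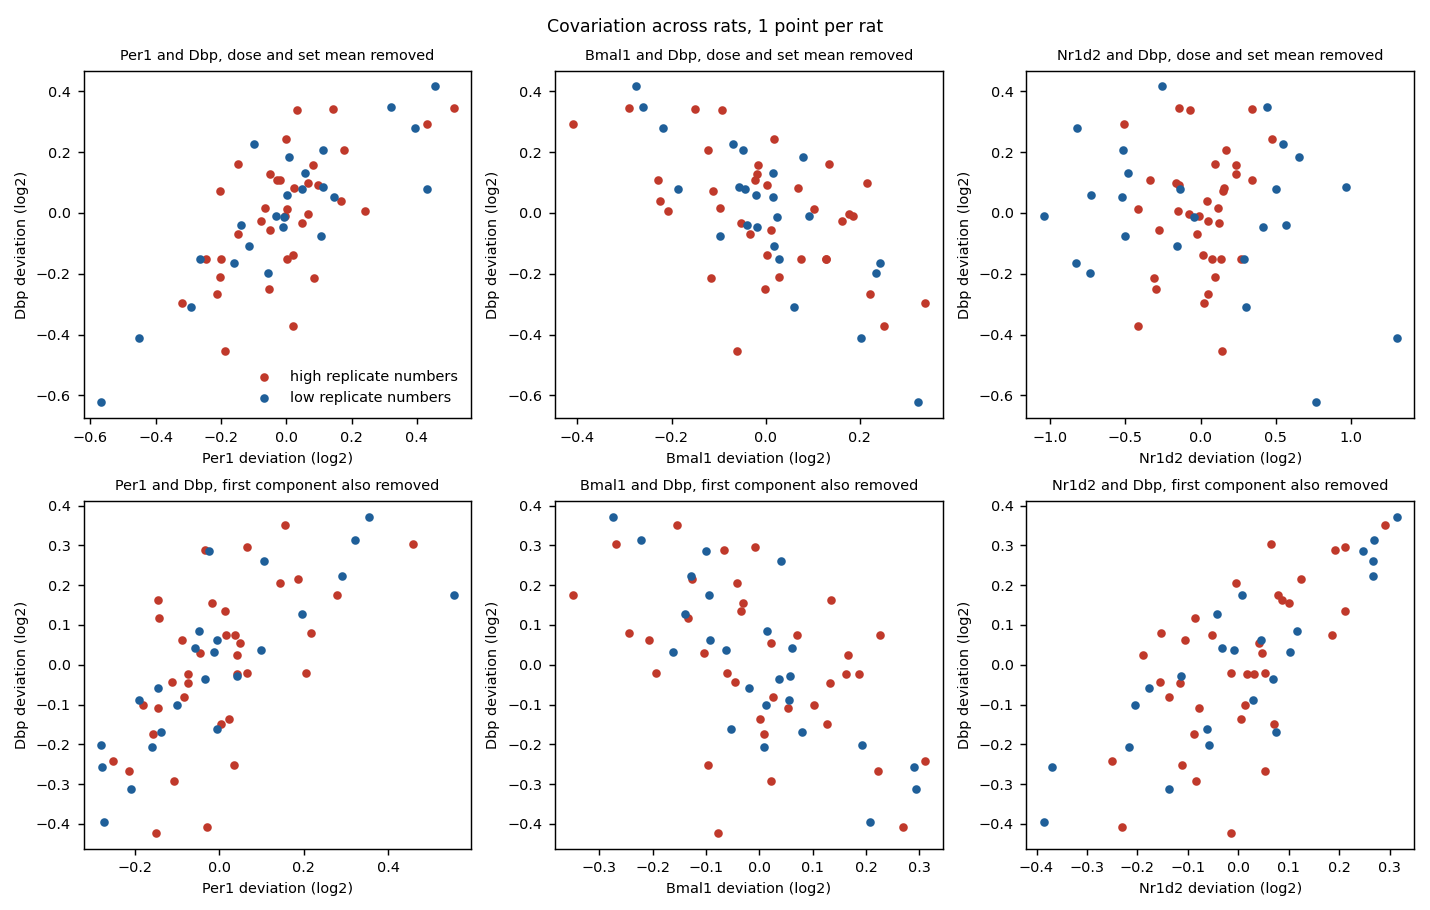
Deviation of each rat from the mean of its dose and replicate set on the log2 scale, for Per1, Bmal1 and Nr1d2 (x axes) against Dbp (y axes), red for high and blue for low replicate numbers. The lower row has the first component removed as well. Per1 and Dbp lie along a rising band and Bmal1 and Dbp along a falling one in both rows, while Nr1d2 and Dbp form a band in the lower row only.

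Several strong pairs went with the first component. Nr1d2 with Clock had r = 0.63 in the high set (rho 0.58, permutation adjusted p = 0.004 and 0.0092) and 0.93 in the low set (rho 0.91, adjusted p = 0.0013 and 0.00088), and -0.31 and 0 with the component removed. Tef with Clock had -0.62 (rho -0.59, permutation adjusted p = 0.0037 and 0.006) and -0.86 (rho -0.84, adjusted p = 0.0016 and 0.00088), and -0.15 and 0.06 with it removed. Other pairs passed in 1 set alone. Dbp with Cry1 had 0.71 in the high set (rho 0.73, permutation adjusted p = 0.0021 and 0.00088) and 0.40 in the low set. Nr1d1 with Dbp had 0.74 in the low set (rho 0.60, permutation adjusted p = 0.017 and 0.049) and 0.22 in the high set. Without the 2 rats farthest from the median of Nr1d1 the low set had 0.44 (permutation adjusted p = 0.37), so that relation rested on them. The difference of these values between sets was not tested.

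**Figure D5:**
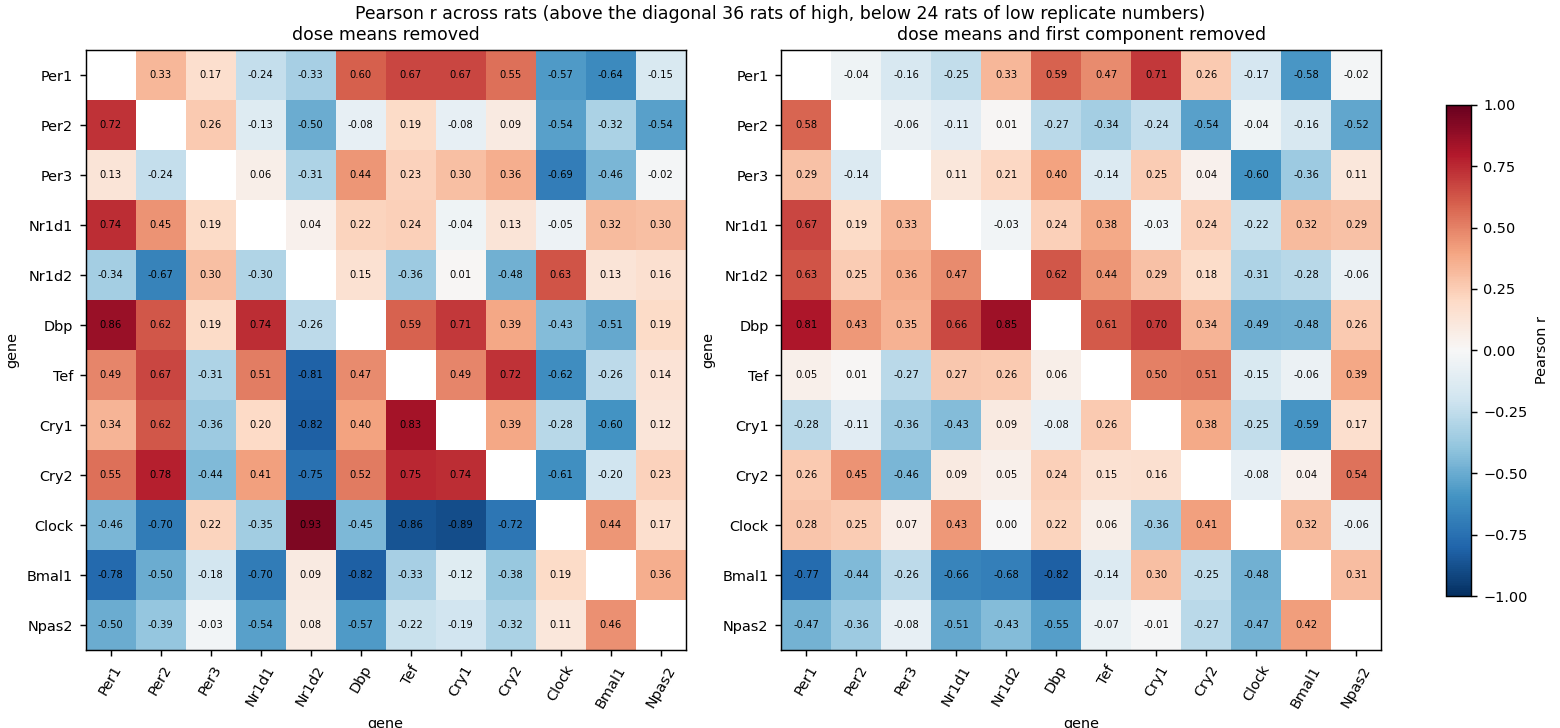
Pearson r across rats between the brightest probe sets of the 10 clock genes, Bmal1 and Npas2 (both axes), for the 36 rats of the high set above the diagonal and the 24 rats of the low set below it. The left panel has dose means removed and the right panel the first component as well. The pairs of Per1 and Dbp (0.60 and 0.86) and of Bmal1 and Dbp (-0.51 and -0.82) keep their sign in both panels, although Bmal1 and Dbp no longer pass in the high set in the right one (-0.48), and that of Nr1d2 and Clock (0.63 and 0.93) fades in the right one.

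The likeness of each clock gene to all others was measured as Pearson r over 60 rats after removing dose and set means, among 14216 other genes, with no test. The 3 genes most like Dbp were Per1 (0.73), Nfkbia (0.73) and Klf15 (0.71), and those most like Per1 were Junb (0.79), Klf2 (0.75) and Sult2b1 (0.74). With the first component also removed, Dbp was most like Nr1d2 (0.73), Herpud1 (0.69) and Per1 (0.68), and Nr1d2 most like Dbp (0.73), Wee1 (0.63) and Lgr4 (0.63). Clock had Ddx3x (0.97), Arap2 (0.97) and Rps6kb1 (0.96) nearest before that removal and Trabd (0.62), Vps37d (0.61) and Arap2 (0.60) after it. Nr1d1 had no near neighbour in either form, with Trim45 (0.55), Tmem231 (0.55) and Dlgap3 (0.53) before and Caskin1 (0.56), Trim45 (0.54) and Rxrb (0.53) after. Cry2 kept Aamp (0.86 and 0.69), Tmem214 (0.85 and 0.66) and Pex6 (0.84 and 0.65). The genes nearest to Cry1 were Smim3 (0.85), Fam110b (0.84) and Mettl7a (0.83), and after removal Tp53bp2 (0.72), Bcl6 (0.70) and Smim3 (0.70). Before removal Nr1d2 had Atl2 (0.96), Cnot6 (0.95) and Cab39 (0.95), Tef had Hrh3, Abca2 and Ubald1 (0.83 each), Per2 had Tbxas1 (0.84), Abi3 (0.84) and Tgif2 (0.83), and Per3 had Safb2 (0.66), Dgkd (0.66) and Stk38 (0.65).

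Probe sets of 1 gene did not always tell the same story. Over 60 rats r was 0.95 between the brighter Nr1d2 probe sets, 0.95 between the brighter Clock probe sets and 0.63 between those of Cry2. It was 0.36 between the brighter Tef probe sets, 0.23 for Per3 and -0.28 for Per2. The dim Clock probe set 1369168_a_at (mean 6.05) had r = 0.26 with the brightest. With dose and set means and the first component removed, r was lower for the pairs that went together best. It was then 0.70 between the brighter Nr1d2 probe sets, 0.30 between the brighter Clock probe sets and 0.24 for Cry2.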

How the data were processed

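The authors deposited log2 values made with robust multi-array average (RMA), per the labels and the study's methods, from 60 Affymetrix rat expression arrays of frontal cortex, 1 per rat. RMA corrects background, normalizes quantiles over all arrays and summarises each probe set, so a sample that stands apart can shift others slightly. The deposited log2 values were used unchanged, over all 31042 probe sets with no filter. Gene symbols came from the platform annotation: 20826 probe sets had 1 symbol, 436 several and 9780 none, and only those with 1 were named. RefSeq promoters (GRCr8) were matched by symbol.

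limma 3.58.1 in R 4.3.3 fitted 1 model to all 60 arrays. Its p-values were adjusted by Benjamini and Hochberg's method across every probe set, and a call needed an adjusted p under 0.05. Replicate sets were compared with dose in the model, and in vehicle rats from a fit of every dose and set. Correlations used numpy 2.4.6 and scipy 1.17.1 under Python 3.11.15. The scripts were tested on simulated data. The number of arrays limits the precision.

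The members and gene lists were chosen with earlier results of these data known. Named were all 20 clock probe sets, Bmal1 and Npas2, other clock genes called in a comparison (the 8 of lowest p where more were), the called genes of the activity and glucocorticoid lists, and the 3 genes most like each clock gene. Pairs were described from among the 11 that passed in both sets, and not all 11 are given with their values in each set. Nr1d2 and Dbp, Dbp and Cry1, and Nr1d1 and Dbp were chosen after their values were seen. Alternatives were the replicate number, the replicate set and the first principal component as terms, other variance priors, filters, scales and centring, fewer arrays, each array left out, and, chosen after seeing the data, the fit without the 15 arrays above the largest gap in the first component and correlations on either side of it. Same-numbered samples of different groups had r over 0.1 in 112 of 168 sample pairs and in all pairs of 1 of 21 group pairs (1 mg/kg deltamethrin with 1 mg/kg permethrin), where 0 clock probe sets were called with or without the block.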

Additional observations from a re-analysis of the deposited data

Results flagged for a closer look

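In each dose group of 8 rats the highest and the lowest rat were compared with the rest, by the gap to the next rat over the group's range. Of 120 groups and probe sets 10 (8.33%) held a rat that stood apart, and 6 of the 10 were on arrays above the largest gap in the first principal component. Chance gives about 1 in 20 for unrelated groups of like rats. Here all probe sets share the same rats and each group mixes both replicate sets, so the share is no test of an excess. At 100 mg/kg permethrin replicate 3 was highest for Per2 1378560_at (9.32, next 9.01) and Cry2 1372548_at (10.8, next 10.48), and replicate 1 was lowest for Tef 1369919_at (7.67, next 8.04). At 10 mg/kg permethrin replicate 3 was highest for Per3 1388239_at (5.78, next 5.55) and lowest for Tef 1369919_at (7.57, next 8.04), and at 1 mg/kg permethrin replicate 2 was highest for Cry2 1369446_at (9.43, next 9.16). In the deltamethrin groups Per3 1388239_at was highest in replicate 3 at 1 mg/kg (5.94, next 5.61), Nr1d2 1390430_at lowest in replicate 1 at 0.3 mg/kg (8.57, next 9.43), Tef 1369919_at lowest in replicate 2 at 0.3 mg/kg (7.36, next 7.96) and Dbp lowest in replicate 5 at 3 mg/kg (9.48, next 9.9).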

How the results depend on the processing

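No clock probe set was called at any dose, trend or compound comparison under any alternative run, and leaving out each array in turn kept these counts at 0 and the count between replicate sets within 1.5 times of 14. With the replicate block the count was 0 in every comparison, so the block changed no clock gene call. Over all probe sets the main fits called 0 in each dose and trend comparison, and the alternatives at most 11 (3 mg/kg deltamethrin, replicate set and first component as terms). Between replicate sets 1 was called in a fit of the vehicle arrays alone and 9 without the 15 arrays apart. With the first component as a covariate Nr1d2 was -0.37, Per2 0.012, Clock -0.077, Tef 0.12 and Cry1 0.20, and without the 15 arrays they were -0.42, 0.002, -0.14, 0.088 and 0.26, with Per3 at -0.003, each against the sign with all arrays. In vehicle rats alone Cry1 was 0.03. The cause was not tested. The numbers of correlations past the threshold were 13 (high set) and 4 (low set) with the component removed, and 12 in the low set without the 2 rats farthest from the median. They were 4 each above and below the gap, where dose means were left in. With the component removed, r changed sign in the low set for Cry2 with Clock (0.41), Nr1d2 with Cry2 (0.05), Per2 with Clock (0.25), Per2 with Nr1d2 (0.25), Tef with Clock (0.06) and Nr1d2 with Dbp (0.85), and in the high set for Nr1d2 with Clock (-0.31), Nr1d2 with Cry2 (0.18) and Per2 with Nr1d2 (0.01). Above the gap it changed for Cry2 with Clock (0.24) and Nr1d2 with Dbp (0.05), and below it for Nr1d2 with Clock (-0.46), with Cry2 (0.11), with Per2 (0.22) and with Dbp (0.61). With both sets pooled Nr1d2 with Dbp was -0.12. Dim probe sets (Clock 1369168_a_at, Per3 1388239_at, Tef 1385374_at) give little room for a change to show.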
